A study of Mus musculus with 78 samples.

Results

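The genes described here encode the contractile, calcium-handling and hormonal proteins of heart muscle, and they were measured in whole lung, where muscle of the cardiac type lies in the walls of the pulmonary veins. The list holds 10 genes, and 9 of them (Tnnt2, Tnni3, Actc1, Mybpc3, Myl7, Myl4, Ryr2, Sln and Nppa) have a probe set that the array annotation assigns to that gene alone, out of 18820 genes with such a probe set. The only probe set of Myh6 also carries another symbol, so Myh6 was not analysed here. Each of the 9 genes has 1 probe set, and its values are log2 intensities, so that a difference of 1 means a doubling of signal.

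Lung RNA came from 78 male C57BL/6 J mice about 10 weeks of age, with 1 array per mouse. All had been fed only at night before the experiment, and all were killed by cervical dislocation. There were 9 baseline mice killed at lights on, mice left to sleep for 3 h (9 mice), 6 h (7), 9 h (9) and 12 h (9), and mice kept awake by gentle handling for 3 h (9 mice), 6 h (9), 9 h (9) and 12 h (8). The study asked how sleep and its loss alter transcripts outside the brain. In the deprived mice, handling, activity and lost sleep cannot be told apart.

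Heart muscle contracts when calcium entering the cell opens the ryanodine receptor Ryr2 and calcium leaves the sarcoplasmic reticulum. The calcium binds the troponin complex on the thin filament, which is made of cardiac actin (Actc1) with troponin T (Tnnt2) and the inhibitory subunit troponin I (Tnni3). Myosin is then free to pull, through a neck whose light chains in atrial muscle are Myl7 and Myl4, and myosin-binding protein C (Mybpc3) tunes the thick filament. Sarcolipin (Sln) restrains the pump that returns calcium to its store, and Nppa encodes atrial natriuretic peptide, a hormone that lowers blood volume. In rodents a sleeve of such atrial-type muscle runs from the left atrium along the pulmonary veins into the lung. The arrays measured whole lung, so the values do not show in which structure the transcripts lay.

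The array numbers given in the sample labels were divided into 4 runs, each a sequence of sleep-deprived groups followed by sleeping groups. The baseline arrays stand before and between the groups of run 3. Of these runs, 2 hold only mice of the 9 h and 12 h groups, the other 2 hold the 3 h and 6 h groups, and all 9 baseline mice are in run 3. Later hours and run therefore cannot be told apart in any comparison with baseline, while sleeping and sleep-deprived mice of the same hour occur together in each run. The tests below were also run without 16 arrays, namely array 81, which stands outside that sequence, and 15 flagged as out of place in it. In the labels, however, each condition fills unbroken blocks of numbers, apart from array 81 and absent numbers. The labels therefore do not mark these 15 arrays as misplaced. Leaving them out is a check with fewer mice, and not a check on doubtful labels. In bulk tissue, fewer cardiac muscle cells and less RNA per cell cannot be told apart.

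The windows before the annotated starts are shown for 4 members, chosen because they hold motifs of muscle or cardiac regulators and because the members moved together from mouse to mouse. They are the 200 bases before the RefSeq start (build GRCm38.p6), written 5′ to 3′ on the strand of the gene, with motif matches in capitals. The positions are chr2:114052876-114053075 (minus strand) for Actc1, chr11:5898783-5898982 (minus) for Myl7, chr1:135836134-135836333 (plus) for the first of 2 starts of Tnnt2 and chr2:91117944-91118143 (plus) for Mybpc3.
Actc1: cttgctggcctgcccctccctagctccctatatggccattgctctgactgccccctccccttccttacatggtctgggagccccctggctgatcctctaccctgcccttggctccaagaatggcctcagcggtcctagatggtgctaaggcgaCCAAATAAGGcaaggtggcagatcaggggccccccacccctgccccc
Myl7: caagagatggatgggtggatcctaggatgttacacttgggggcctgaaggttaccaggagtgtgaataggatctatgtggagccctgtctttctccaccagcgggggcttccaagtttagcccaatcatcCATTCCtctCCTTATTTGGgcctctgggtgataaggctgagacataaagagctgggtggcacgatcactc
Tnnt2: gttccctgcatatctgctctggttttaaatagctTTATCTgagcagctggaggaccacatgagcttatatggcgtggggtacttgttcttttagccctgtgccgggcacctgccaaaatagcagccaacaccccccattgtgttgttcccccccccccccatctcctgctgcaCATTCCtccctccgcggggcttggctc
Mybpc3: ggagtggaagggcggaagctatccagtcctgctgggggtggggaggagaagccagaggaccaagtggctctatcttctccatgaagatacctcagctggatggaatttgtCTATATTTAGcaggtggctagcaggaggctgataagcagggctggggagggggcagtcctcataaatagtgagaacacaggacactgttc
In Actc1 and Myl7 the capitals mark a CArG box, the site of serum response factor, which starts 47 and 61 bases before the start. Myl7 also holds the M-CAT motif (CATTCC) 70 bases before the start, and Tnnt2 holds it 27 bases before the start together with a GATA box (AGATAA, read here on the other strand) at 166 bases. In Mybpc3 the capitals mark a MEF2 box at 90 bases. Both strands were searched, and no 2 of these matches overlap. Over all 32851 windows of the same length, a CArG box occurred in 1.18%, a MEF2 box in 2.29%, a GATA box in 7.8%, M-CAT in 10.1% and a TATA box (TATAAA) in 9.96%, the last of which was also found 9 bases before the start of Nppa. Windows were found for 8 of the 9 members, and none of the 5 motifs was found in those of Tnni3, Myl4 and Ryr2 or at the second start of Tnnt2. Sln has none in the table. A match is a description of the letters and does not show a bound site.

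The clearest feature of these genes was how far single mice of the same group lay apart. Over all 78 mice, Nppa ran from 8.59 through a median of 10.16 to 12.71, a 17.4-fold range of signal. Mybpc3 ran from 6.54 through 7.08 to 9.69, an 8.88-fold range, and Ryr2 from 7.80 through 8.47 to 10.20, a 5.25-fold range. Troponin I (Tnni3) spanned 5.32-fold, the atrial light chain Myl7 5.06-fold and sarcolipin (Sln) 3.26-fold, while troponin T (Tnnt2), the light chain Myl4 and cardiac actin (Actc1) spanned 2.70-fold, 2.32-fold and 2.20-fold. The members thus ranged widely, with the hormone gene at one end and actin at the other.

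Measured around the 9 group means, the SD between mice was 0.996 for Nppa, 0.530 for Mybpc3, 0.423 for Myl7, 0.380 for Ryr2, 0.377 for Tnni3, 0.372 for Sln, 0.302 for Tnnt2, 0.252 for Myl4 and 0.198 for Actc1. The median SD of all 18820 genes was 0.137. Nppa ranked 153 of 18820, 6 of the 9 members were among the top 5% of genes, 8 among the top 10%, and Actc1 was outside it at rank 3299. Probe sets differ in how steeply signal follows transcript, so the ranks are a description. Groups accounted for 10.2% (Tnnt2) to 36.1% (Tnni3) of the variance of a member, against a median of 21.4% over all genes.

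**Figure D1:**
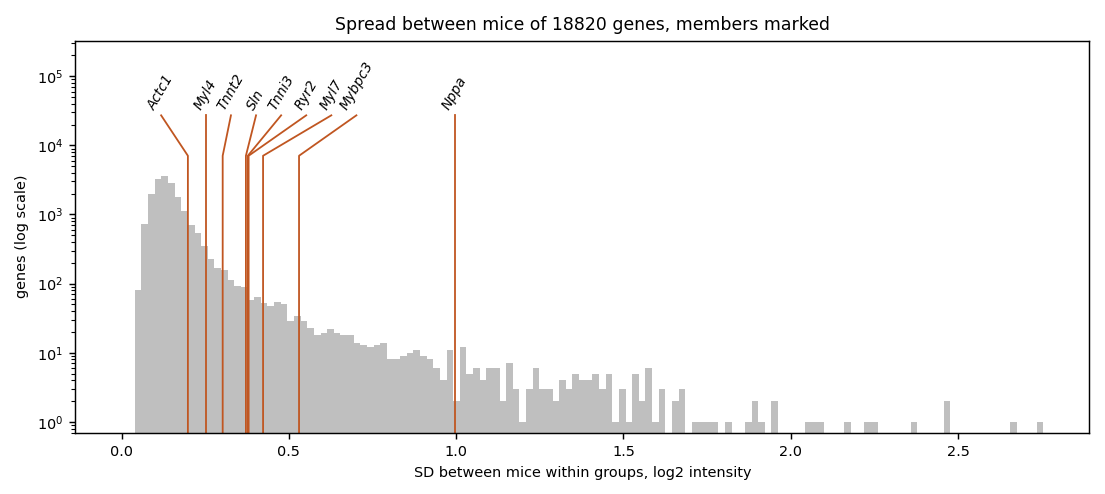
Histogram of the SD between mice within groups (log2 intensity, x axis) for 18820 genes, with the number of genes on a log axis and each member marked by a line. The members run from 0.198 (Actc1) to 0.996 (Nppa), against a median of 0.137 over all genes.

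Mostly the same mice were high or low for the members. In 16 of 78 mice all 9 members were above their own means over all mice, and in 19 all 9 were below. Mice are named here by a replicate number counted within the group, and by the array number in the labels. Replicate 3 of the mice that slept 3 h (array 59) held the highest value of every one of the 9 members. The lowest values were spread over 6 mice, with 3 members lowest in replicate 3 of the mice that slept 9 h (array 12) and 2 in replicate 4 of the mice deprived for 12 h (array 81). Averaged over the members, each centred on its own mean, mice ranged from -0.57 to 1.45. The agreement was not complete. The mouse at -0.57 (replicate 2 of the mice that slept 9 h, array 11) had the lowest Myl7 of all mice, 9.68, while its Tnnt2, at 11.77, ranked 19 from the top.

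**Figure D2:**
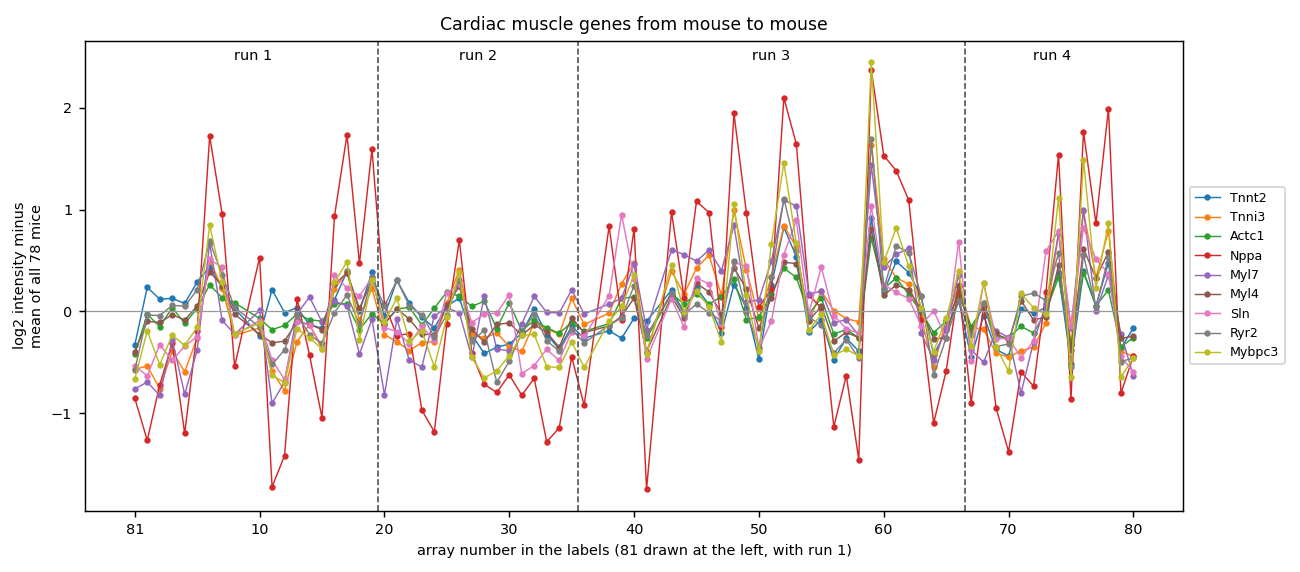
Each member's log2 intensity minus its mean over the 78 mice (y axis) along the array numbers in the labels (x axis, array 81 drawn first), with dashed lines between the 4 runs and 1 line for each gene. The 9 lines peak together, highest at array 59, where Nppa is at 12.71 log2 units before centring.

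Mice that slept 3 h were the most widely spread group. Their Nppa values were 8.88, 9.48, 9.71, 11.20, 11.72, 11.87, 12.10, 12.33 and 12.71. In 6 of these 9 mice every member lay above its mean over all mice, and in the other 3 every member lay below it, so no mouse of this group was mixed. The SD between mice was highest in this group for 8 of the 9 members (Nppa 1.40, Ryr2 0.70, Tnni3 0.61), the exception being Sln, which was widest in mice deprived for 6 h at 0.47. It was lowest in mice deprived for 9 h for 8 members (Nppa 0.49, Ryr2 0.12, Tnni3 0.18), and for Myl7 it was lowest after 12 h of sleep at 0.18. Over baseline and the 4 sleeping groups, 0 of 9 members had unequal spread by Bartlett's test at an adjusted p under 0.01 together with the Brown-Forsythe test at a p under 0.01, which 0.112% of all 35556 probe sets passed. Bartlett's test alone, which 4.01% of probe sets passed, called 0 of 9 as well. It gave an unadjusted p under 0.05 for 5 members and its lowest adjusted p, 0.0273, for Mybpc3.

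**Figure D3:**
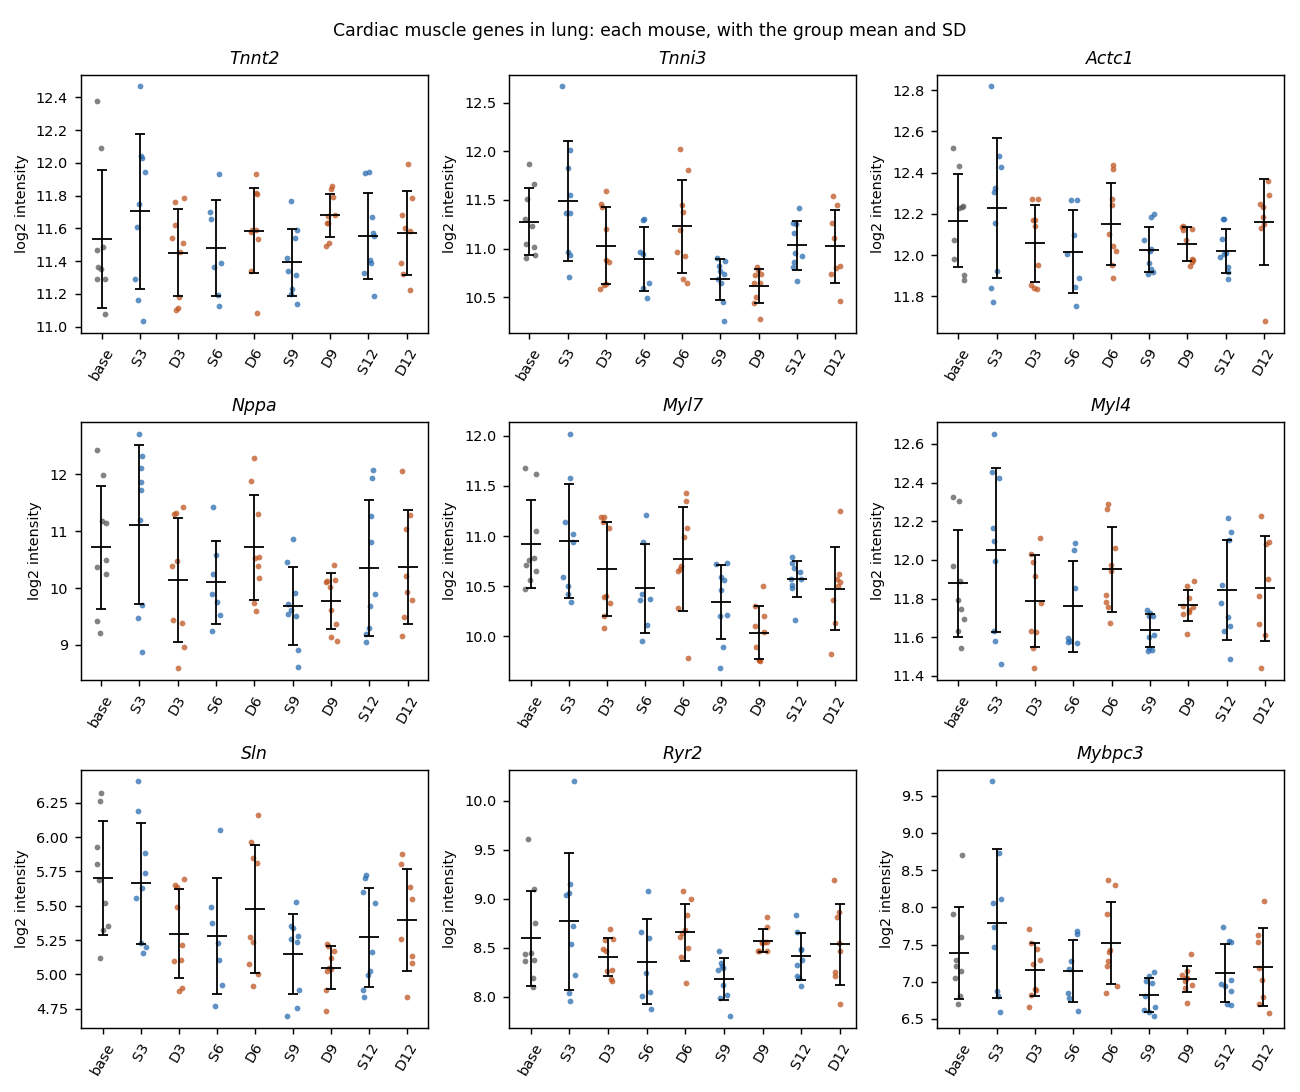
Log2 intensity (y axis) of the 9 members in each mouse by group (x axis: base, baseline; S and D with a number, sleeping and sleep-deprived mice at that hour), with a bar for the mean and whiskers for 1 SD. The mice that slept 3 h are spread widest for 8 of the 9 genes, and group ranges overlap in nearly every panel.

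Along the groups, the hormone gene had the widest span of means. Nppa averaged 10.72 ± 1.08 (SD, n = 9) at baseline, 11.11 ± 1.40 (n = 9), 10.10 ± 0.74 (n = 7), 9.68 ± 0.69 (n = 9) and 10.35 ± 1.19 (n = 9) after 3 h, 6 h, 9 h and 12 h of sleep, and 10.14 ± 1.08 (n = 9), 10.72 ± 0.92 (n = 9), 9.78 ± 0.49 (n = 9) and 10.37 ± 0.998 (n = 8) after the same hours of deprivation. Of the thin filament genes, Tnnt2 group means lay between 11.39 and 11.70 and those of Actc1 between 12.02 and 12.23. For the light chain Myl4 they lay between 11.64 and 12.05, for Mybpc3 between 6.82 and 7.79, for Ryr2 between 8.18 and 8.77 and for Sln between 5.05 and 5.70.

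Sleep-deprived and sleeping mice did not differ in any member past the threshold. Over all hours, limma's moderated test called 0 of 9 members at an adjusted p under 0.01, against 5.59% of all probe sets, and 0 of the 9 had an unadjusted p under 0.05. The differences, sleep-deprived minus sleeping, ran from -0.10 for Myl7 (95% confidence interval -0.33 to 0.12, adjusted p = 0.609) to 0.11 for Ryr2 (-0.07 to 0.29, adjusted p = 0.48). Their median was 0.01, and the median of all probe sets was 0.00. For Nppa the difference was -0.08 with an interval from -0.57 to 0.42, the widest of the 9, so that differences within it could not be told from none in these mice.

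After 3 h, all 9 members were lower in sleep-deprived mice, but none past the threshold (0 of 9, against 6.11% of all probe sets). Tnni3 was 10.59, 10.88 and 11.59 (lowest, median and highest) in the deprived mice and 10.70, 11.37 and 12.67 in the sleeping mice. Its difference was -0.46 ± 0.18 (SE), with the lowest adjusted p of the members at this hour, 0.0713. Mybpc3 was 6.66, 7.24 and 7.70 in deprived and 6.60, 7.73 and 9.69 in sleeping mice, a difference of -0.62 ± 0.25 (adjusted p = 0.0833). The ranges of both groups overlapped for every member, and for Tnni3 and Mybpc3 the low ends lay close together. For Myl7 they lay further apart, at 10.08 in deprived and 10.35 in sleeping mice, as they did for Sln, at 4.88 and 5.15. The sleeping group held both the highest mice and some of the lowest.

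Nppa at 3 h was 8.59, 10.40 and 11.42 in deprived and 8.88, 11.72 and 12.71 in sleeping mice, a difference of -0.97 ± 0.46 (adjusted p = 0.168). The remaining differences at 3 h ran from -0.17 for Actc1 to -0.37 for Sln, and 6 of 9 members had an unadjusted p under 0.05. That count was 0 without array 59, the highest mouse, 1 with array weights and 2 without the 16 arrays. The share of all probe sets with an unadjusted p under 0.05 was not counted, here or in the other comparisons. The members vary together from mouse to mouse, so their shared direction does not count as 9 observations. Without array 59 the differences of Mybpc3, Ryr2, Myl7, Actc1 and Tnnt2 shrank over 1.5-fold, to -0.38, -0.18, -0.15, -0.10 and -0.16, and that of Tnni3 was -0.31 (adjusted p = 0.249). Without the 16 arrays Tnni3 differed by -0.44 (adjusted p = 0.117), Nppa by -0.70 and Tnnt2 by -0.13. With array weights the differences ran from -0.09 (Actc1) to -0.75 (Nppa).

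**Figure D4:**
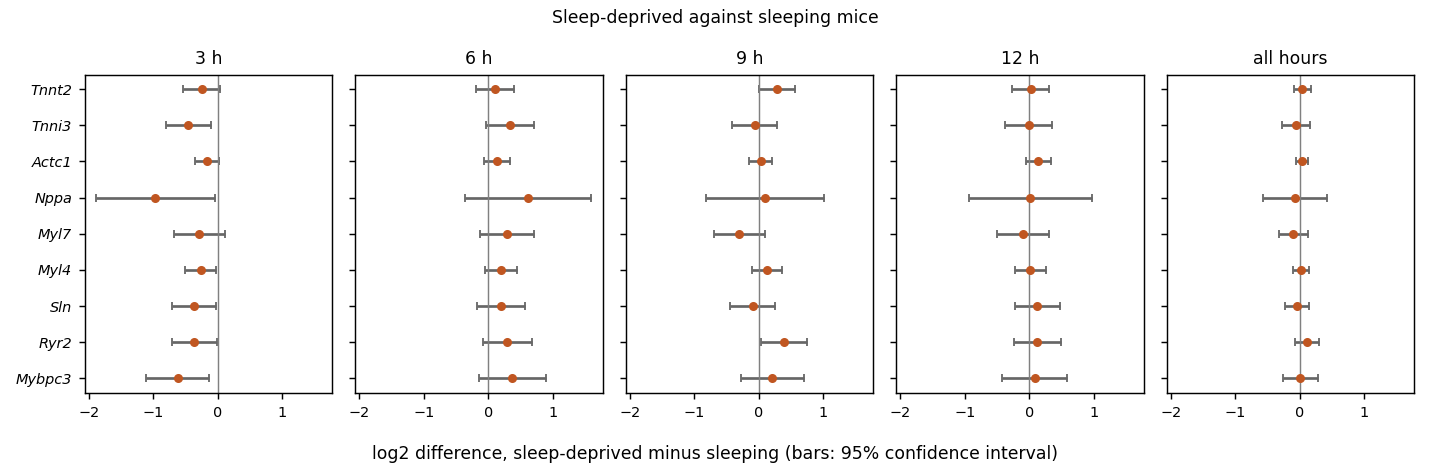
Log2 difference of each member, sleep-deprived minus sleeping (points), with its 95% confidence interval (bars), at 3, 6, 9 and 12 h and over all hours. All 9 points lie below 0 at 3 h and above 0 at 6 h, and no member passed an adjusted p of 0.01 in any panel.

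At 6 h the signs were the other way. All 9 members were higher in sleep-deprived mice, from 0.10 for Tnnt2 to 0.62 for Nppa, with 0 of 9 called against 0.0591% of all probe sets and 0 with an unadjusted p under 0.05. At 9 h, 0 of 9 were called against 2.56%, and the members parted. Ryr2 was 8.46, 8.55 and 8.81 (lowest, median and highest) in deprived and 7.80, 8.27 and 8.47 in sleeping mice, a difference of 0.39 ± 0.18 (adjusted p = 0.153), and the ranges touched only at their edge. Tnnt2 differed by 0.29 ± 0.14, and these 2 genes had an unadjusted p under 0.05, while Myl7 differed by -0.30 ± 0.20. At 12 h, 0 of 9 were called against 0.0816%, and the differences ran from -0.10 (Myl7) to 0.14 (Actc1), with 0 at an unadjusted p under 0.05. Whether the gap between states varied with the hour was examined with an F test in limma. It called 0 of 9 members, against 0.0562% of all probe sets, with an unadjusted p under 0.05 for 4 and a lowest adjusted p of 0.193 for Ryr2. The 4 became 0 without array 59, with array weights or without the 16 arrays.

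Levels did differ among the 9 groups for the inhibitory troponin and the atrial light chain. Tnni3 (adjusted p = 0.000501) and Myl7 (adjusted p = 0.00172) passed limma's F test over all groups, 2 of 9 members against 25.1% of all probe sets, with Sln next at 0.0135 (called with array weights, 0.00452, and without the 16 arrays, 0.00196). That share is near the background. With the 4 runs as a block 0 of 9 passed in limma and 2 had an unadjusted p under 0.05, with adjusted p of 0.0199 for Tnni3 and 0.0917 for Myl7. Group means of Tnni3 ran from 10.62 ± 0.18 (SD, n = 9) in mice deprived for 9 h to 11.49 ± 0.61 (n = 9) in mice that slept 3 h, and those of Myl7 from 10.04 ± 0.27 to 10.95 ± 0.57 in the same groups. In the order of group means, 8 members were highest after 3 h of sleep and Sln at baseline, 5 members were lowest after 9 h of sleep and 3 after 9 h of deprivation. For each member, all 8 gaps between neighbours in that order were smaller than the larger SD of the pair.

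Against baseline, 3 members were lower after 9 h of deprivation, namely the atrial light chain Myl7, the inhibitory troponin Tnni3 and sarcolipin (Sln). Myl7 was 9.76, 10.04 and 10.51 (lowest, median and highest) in mice deprived for 9 h and 10.47, 10.76 and 11.68 at baseline, a difference of -0.88 ± 0.20 (SE, adjusted p = 0.00056), and only the top of the first range reached the second. Tnni3 was 10.28, 10.65 and 10.81 after 9 h of deprivation and 10.91, 11.24 and 11.87 at baseline, and these ranges did not overlap. Its difference was -0.66 ± 0.18 (adjusted p = 0.00374). Sln was 4.74, 5.05 and 5.22 after deprivation and 5.12, 5.69 and 6.32 at baseline, a difference of -0.65 ± 0.17 (adjusted p = 0.00368). Its signal was low, since its highest value in any mouse, 6.41, was below the lowest array median, 6.45. These 3 of 9 were called lower, against 6.51% of probe sets called lower and 12.9% called in either direction.

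The other members were not called in that comparison. The ryanodine receptor gene Ryr2 differed by -0.03 ± 0.18, Tnnt2 by 0.15 ± 0.14 and Nppa by -0.94 ± 0.46 (adjusted p = 0.126). Mice deprived for 9 h lie in runs 1 and 2 and baseline mice in run 3, so hours, deprivation and run cannot be told apart in these values, and no fit with run as a block gives them. After 9 h of undisturbed sleep all 9 members were also below baseline, from -0.14 (Tnnt2) to -1.04 (Nppa), with 0 called against 2.55% of probe sets and 7 at an unadjusted p under 0.05. The lowest adjusted p was 0.0262, for Tnni3. In the 6 other groups compared with baseline, 0 of 9 members were called. The share of all probe sets called there was 0.0112% after 3 h, 0.228% after 6 h and 4.17% after 12 h of sleep, and 1.27%, 0.231% and 3.54% after 3 h, 6 h and 12 h of deprivation. The number of members at an unadjusted p under 0.05 was 0, 3 and 1 in the first 3 of these groups and 1, 0 and 1 in the others. All 8 comparisons share the baseline mice.

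Over the hours of sleep, from baseline through 12 h, 0 of 9 members had a slope past the threshold, against 5.44% of all probe sets, and 6 had an unadjusted p under 0.05. All 9 slopes were negative, from -0.11 per 12 h for Tnnt2 to -0.86 per 12 h for Nppa. Sln had the lowest adjusted p, 0.0199, at -0.55 ± 0.16 per 12 h. With limma's array weights the slope of Sln was -0.52 and passed (adjusted p = 0.0049). With run as a block the slopes were smaller for all members but Tnnt2 and their signs divided, with -0.48 for Sln, -0.34 for Nppa, 0.01 for Mybpc3, 0.01 for Myl4 and 0.13 for Tnnt2.

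Along the natriuretic peptide pathway, the receptor that clears the hormone was called higher in sleep-deprived mice at 3 h and over all hours. Npr3, the clearance receptor, was 11.66, 12.00 and 12.13 (lowest, median and highest) in mice deprived for 3 h and 10.63, 10.86 and 11.71 in mice that slept 3 h. It was higher by 0.99 ± 0.17 (adjusted p = 2.11e-05) at 3 h and by 0.44 ± 0.11 over all hours (adjusted p = 0.00357). At 6 h, 9 h and 12 h the differences were 0.45 ± 0.18, 0.18 ± 0.17 and 0.05 ± 0.17, none of them called (adjusted p = 0.273, 0.523 and 0.996), and the F test of whether the gap varied with the hour gave an adjusted p of 0.0572. At 3 h the groups overlapped at the edge, through the highest sleeping mouse. Of the other 5 measured genes of the pathway (Nppb, Nppc, Corin, Npr1 and Npr2), 0 were called by limma between states over all hours or at any hour. An unadjusted p under 0.05 was found for 0 of these 5 over all hours and 2 at 3 h. Over the mice, Npr3 did not follow the members (r = 0.01 with their mean), whereas Corin, which cuts the Nppa precursor into the hormone, and Nppb, the second cardiac natriuretic peptide, did (r = 0.93 and 0.86).

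Across the 78 mice the 9 members rose and fell together. Over their 36 pairs Pearson's r ran from 0.51 (Tnnt2 with Myl7) through a median of 0.79 to 0.92 (Ryr2 with Mybpc3), and from 0.58 to 0.94 around the group means. Tnnt2 was set against each of the 8 others as a family of 8 relations. Its r was 0.89 with Ryr2 (Spearman's rho 0.87), 0.84 with Myl4 (0.82), 0.82 with Mybpc3 (0.78), 0.76 with Actc1 (0.69) and 0.73 with Nppa (0.67). It was 0.63 with Tnni3 (0.50), 0.52 with Sln (0.45) and 0.51 with Myl7 (0.39). Every r had a permutation p of 1e-05, the smallest that 100000 permutations can give, and 1e-05 after Benjamini-Hochberg adjustment. The permutation p of rho was at most 0.00051, before and after adjustment. The values of a mouse share 1 array and 1 normalization, and the points form a single cloud with a few mice at its upper end.

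Without the 2 mice farthest from the Tnnt2 median (array 59, and replicate 5 of the baseline mice), r ran from 0.39 to 0.86 and all 8 kept an adjusted permutation p under 0.05. Within runs 3 and 4 all 8 relations did so as well, with r from 0.59 to 0.95 and from 0.64 to 0.94. Within runs 1 and 2, which hold the later hours, 4 of 8 did in each. There r with Ryr2 was 0.75 and 0.88 and with Myl4 0.76 and 0.73, but r with Myl7 was 0.23 and -0.027. Thus the troponin T and ryanodine receptor genes were related in every run, and the relation with the atrial light chain Myl7 passed in runs 3 and 4 only. The difference between runs was not tested.

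**Figure D5:**
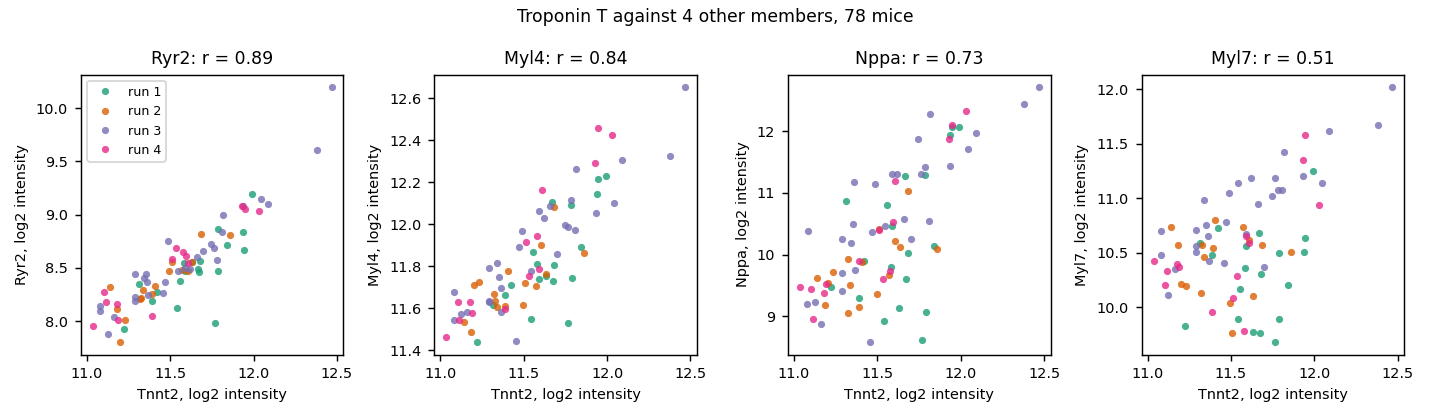
Log2 intensity of Ryr2, Myl4, Nppa and Myl7 (y axes) against that of Tnnt2 (x axes), with 1 point per mouse and a colour for each of the 4 runs. Over the 78 mice r falls from 0.89 for Ryr2 to 0.51 for Myl7.

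Among 18811 other genes, those most like the mean of the members over the 78 mice were led by genes known from heart muscle. The highest were Casq2, which buffers calcium in the store that Ryr2 opens (r = 0.96), Myoz2, a protein of the sarcomere's Z-disc (0.95), and Mybphl, an atrial relative of Mybpc3 (0.95). Kcnj5 and Kcnj3, the subunits of the atrial potassium channel that acetylcholine opens, followed (0.94 and 0.93), then Corin (0.93), Fndc5 (0.93), Ndrg4 (0.92), the cardiac myosin kinase Mylk3 (0.91) and the troponin subunit Tnnc1 (0.91). Next were Alpk2 (0.91), the cardiac transcription factor Tbx20 (0.91), the vesicular glutamate transporter Slc17a7 (0.91), Yipf7 (0.90), Doc2g (0.90), the kinase Tnni3k (0.90), Fgf12 (0.90), phospholamban (Pln, 0.90), Trim55 (0.89) and Abcc8 (0.89). Of these 20, 9 belong to the other lists used here, and 65 genes in all had an r of at least 0.8. The lowest were Zfp870 (-0.58), Olfr554 (-0.54), Hhip (-0.54), Ltn1 (-0.54) and Wrn (-0.53). For the members themselves, which are part of that mean, r was 0.80 to 0.95.

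Of 24 other sarcomere genes measured, some shared with skeletal muscle, 21 had an r of at least 0.5 with the members. So did 10 of 19 calcium and excitation genes and 10 of 10 genes of muscle energy supply, some of them shared with brown fat. The same held for 5 of 9 cardiac transcription factors and 4 of 9 genes of vein and atrial muscle. Among all 18811 genes other than the members, 555 reached that r. Titin (Ttn) stood at 0.72, Actn2 at 0.86, the calcium pump Atp2a2 at 0.80, myoglobin (Mb) at 0.89, Nkx2-5 at 0.84 and Gata4 at 0.76. Lower values were seen for Gata6 (0.24), Tbx5 (0.25) and Gja5 (0.24), which other lung cells also use. The vein and atrial genes Kcna5 (0.17) and Nr2f1 (0.08) were low as well. Values below 0 were found for Nr2f2 (-0.20), Tbx3 (-0.12), Mef2a (-0.35), Nebl (-0.28), Tmod1 (-0.14), Cacna1c (-0.16) and Fkbp1b (-0.16). Bmp10, a growth factor of atrial heart muscle, ran from 3.75 through a median of 4.18 to 9.81 over the mice (r = 0.75, rho 0.58). It was at 9.81 in array 59, 8.20 in replicate 5 and 7.19 in replicate 6 of the baseline mice, 8.96 in replicate 2 of the mice deprived for 6 h and 6.43 in replicate 7 of the mice that slept 3 h, which are the 5 mice with the highest levels of the members. In the 5 lowest mice Bmp10 was at 3.93 to 4.56.

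Of 5 genes of ventricular muscle, 1 had an r of at least 0.5 with the members (median 0.31, beside 0.24 for the vein and atrial list). Myl2, the ventricular counterpart of Myl7, was at 10.34 in array 59, the highest of all mice, but at 5.58 or less in the next 4 mice by level of the members, against a median of 5.01 over all mice. Myl3, the counterpart of Myl4 that slow skeletal muscle also uses, was highest in array 59 too, at 10.04. Unlike Myl2, it was also high in the next 4 mice, at 8.47 to 9.68, against a median of 6.70 over all mice. Myl3 was the 1 gene of the 5 with an r of at least 0.5 (0.504). Over the mice, r of Tnnt2 with Myl2 was 0.27 (rho 0.12, permutation p of r = 0.0157, adjusted p = 0.0282 over 9 genes of other tissues) and 0.08 without the 2 farthest mice (adjusted permutation p = 0.546). Both Myl2 and Myl3 thus reached their peak in the mouse where all members peaked, and the part of ventricular muscle in the members' values was not tested.

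Markers of other tissues that a lung sample can hold were set against Tnnt2 in the same family of 9. The fat gene Adipoq (r = 0.40, rho 0.40), the brown fat gene Ucp1 (0.37, 0.35), the mesothelial gene Msln (0.34, 0.36) and, in the opposite direction, the surfactant gene Sftpc (-0.28, -0.28) had a permutation p of 0.0004, 0.00069, 0.00233 and 0.0117 in r, and 0.00311, 0.00311, 0.00699 and 0.0264 after adjustment. Skeletal muscle Acta1 (0.23, 0.19), smooth muscle Acta2 (0.22, 0.28), the thymus gene Ptcra (-0.23, -0.20) and the liver gene Alb (0.02, 0.03) did not pass in r, and Acta2 passed in rho (adjusted permutation p = 0.0224). Within runs, 0 of 9 passed in runs 1, 2 and 3, and Adipoq and Msln passed in run 4. Over all mice none of these r reached the lowest r between Tnnt2 and a member, 0.51. Tnnt2, however, had the lowest r of the members with their mean, 0.80. Against that mean r was 0.63 for Adipoq, 0.50 for Ucp1, 0.46 for Acta1 and 0.40 for Msln. It was 0.06 for Acta2, 0.02 for Alb, -0.17 for Ptcra and -0.18 for Sftpc.

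By whole lists, 1 of 17 skeletal muscle and 1 of 9 smooth muscle genes had an r of at least 0.5 with the mean of the members. So did 2 of 4 brown fat genes, 3 of 4 fat cell genes and 1 of 3 mesothelial genes. It was reached by 0 of 6 lung epithelial, 5 endothelial, 4 thymus, 4 liver and 2 red cell genes, and by 555 of 18811 genes other than the members. All 17 skeletal muscle genes had a positive r, from 0.22 through a median of 0.42 to 0.54. At 3 h the level of several lists was lower in deprived mice, as that of the members was. The median mouse was higher after sleep than after deprivation for skeletal muscle (0.46 against -1.12), brown fat (0.90 against -1.16), fat cells (0.42 against -0.21) and liver genes (0.36 against -1.15), on the scale of log2 intensity minus the mean over all mice and averaged over the list. Smaller gaps in that direction were seen for thymus (0.11 against -0.16) and mesothelial genes (0.11 against -0.03). The ranges of the mesothelial genes overlapped. Those of the thymus genes did not, at -0.04 to 0.21 after sleep and -0.40 to -0.08 after deprivation. Ptcra, the gene of that list set against Tnnt2, did not share the gap. Its mean was 5.35 ± 0.15 (SD) after 3 h of sleep and 5.41 ± 0.13 after 3 h of deprivation. For the first 4 lists the ranges overlapped, running from -1.14 to 2.58 after sleep and -1.20 to 2.19 after deprivation for skeletal muscle, from -1.49 to 3.55 and -1.85 to 2.26 for brown fat, from -0.64 to 1.59 and -1.11 to 0.66 for fat cells and from -0.68 to 4.08 and -1.53 to 0.16 for liver genes. The part of these tissues in the members' values was not tested.

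Between states, few genes of the related muscle lists were called. These lists are not of heart muscle alone, since some sarcomere genes are shared with skeletal muscle and some energy genes with brown fat. Over all hours, limma called 0 of 24 sarcomere and 0 of 19 calcium and excitation genes. It called 0 of 10 energy and 0 of 9 vein and atrial genes, against 5.59% of all probe sets. In these lists 3, 1, 0 and 1 genes had an unadjusted p under 0.05. The median differences were 0.01, -0.02, -0.16 and -0.02. Of the 9 transcription factors 1 was called. This was Mef2c, a myocyte enhancer factor that other cells also make, whose level fell by 0.25 ± 0.05 with deprivation (adjusted p = 0.000493) and whose difference at 9 h was -0.37 ± 0.09 (adjusted p = 0.00909). At 3 h the calcium-binding protein gene S100a1 differed by -0.19 ± 0.05 (adjusted p = 0.00458), and the ventricular repressor gene Hey2, which vessels also express, was higher by 0.30 ± 0.08 (adjusted p = 0.00818). At that hour 10 of 24 sarcomere, 13 of 19 calcium and excitation and 7 of 10 energy genes had an unadjusted p under 0.05. S100a1 alone of these genes was called, against 6.11% of all probe sets. The median differences were -0.41 for sarcomere, -0.20 for calcium and excitation and -0.65 for energy genes. They were -0.36 for the members and 0.01 for all probe sets.

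In contrast, 2 of 9 smooth muscle genes were called higher with deprivation over all hours, against 5.59% of all probe sets called in either direction. The actin gene Acta2 was higher by 0.16 ± 0.03 (adjusted p = 3.99e-05) and calponin (Cnn1) by 0.24 ± 0.05 (adjusted p = 0.00066), and Acta2 also passed at 9 h (0.19) and 12 h (0.30). Among the 5 endothelial genes, Pecam1 was called higher, by 0.06 ± 0.02 over all hours (adjusted p = 0.00911). Kdr of the same list differed in the other direction, by -0.12 ± 0.04, and was not called (adjusted p = 0.04). Along the hours of sleep, Gja5, the connexin of atria and arterial endothelium, had a slope of -1.07 ± 0.14 per 12 h (adjusted p = 8.51e-07) and Tbx20 one of -0.78 ± 0.20 (adjusted p = 0.00782), while the sarcomere genes Tcap and Tmod1 rose by 0.75 ± 0.19 and 0.74 ± 0.12 (adjusted p = 0.00543 and 1.3e-05). Of these 4, only Tbx20 followed the members from mouse to mouse (r = 0.91, against 0.24, 0.38 and -0.14). Slopes were also called for Gja1 (-0.60), Wt1 (-0.46), Gata6 (-0.34), Kdr (-0.26), Npr1 (-0.21), Fkbp1b (0.35) and Myh11 (0.35). Among these further genes r with the members was highest for Wt1 (0.60) and Gja1 (0.41). Of all probe sets, 5.44% had a called slope. For these slopes too, the later hours lie in other runs than the earlier ones.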

How the data were processed

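Lung RNA (Trizol and RNeasy) of single mice was hybridized to Affymetrix Mouse Gene 1.0 ST arrays. The authors normalized the arrays by RMA and deposited the log2 intensities, 35556 probe sets in all, with the decimal point missing. It was put back (values 2.27 to 13.85, array medians 6.45 to 6.78), and nothing else was done to the scale. The number of mice limits precision. P-values measure the spread between mice. Groups follow the labels. The members, lists and tests were chosen with earlier results of these data known, and named genes are the members, listed genes by order or by passing a test, and the 20 most and 5 least like the members. Relations planned against Myh6 were run against Tnnt2, the next member, because Myh6 has no probe set of its own. Linear models were fitted in limma 3.58.1 (R 4.3.3). The comparison over all hours had no term for time. Slopes over sleep had hours as a number and used baseline and sleeping mice only. The other comparisons had 9 group means. All these p-values were adjusted by Benjamini-Hochberg over all probe sets (threshold 0.01). Permutation tests (100000) were two-sided. The procedure was tested on simulated data. Alternatives were time as a factor, run as a block, array weights, a mean intensity of at least 6, trended and robust variances, the median absolute deviation, any probe set of a gene, and leaving out the 16 arrays or the highest or lowest mouse.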

Additional observations from a re-analysis of the deposited data

Results flagged for a closer look

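Of 81 sets of mice (9 members in 9 groups) tested for a mouse far from the others, 2 held one. Chance flags about 1 in 20 such sets, and the 9 members share the same mice, so the sets are not independent. Actc1 was at 11.68 in replicate 4 of the mice deprived for 12 h (array 81), with the next mouse at 12.13. Myl7 was at 10.16 in replicate 4 of the mice that slept 12 h (array 18), with the next at 10.48.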

How the results depend on the processing

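No paired analysis was possible because the labels carry no replicate numbers. The replicate numbers used here count the mice of a group in accession order and pair nothing. Counts of members called moved for 3 tests. Without the 16 arrays 1 member (Sln, -0.74) passed for 9 h of sleep minus baseline, among the 9 groups 0 passed with run as a block and 3 (Tnni3, Myl7 and Sln) with array weights or without the 16 arrays, against 2, and with array weights 1 (Sln, -0.52) passed for the slope over sleep. The causes were not tested. With a mean intensity of at least 6, Sln was left out. The difference of Mybpc3 over all hours, 0.0072, turned to -0.0025 with time as a factor, -0.0021 with run as a block and -0.011 without the lowest mouse, all far from the threshold. Of the relations with Tnnt2, those that lost the threshold were Tnni3 (0.486 in run 1, 0.299 in run 2), Actc1 (0.34 in run 2), Nppa (0.47 in run 1), Myl7 (0.228 in run 1) and Sln (0.456 in run 1, 0.0979 in run 2), and Myl7 turned to -0.027 in run 2. Among genes of other tissues, Myl2 was at 0.0818 without the 2 farthest mice, 0.276 without the 16 arrays, 0.124, 0.0372 and 0.3997 in runs 1, 2 and 3 and -0.418 in run 4. Ucp1 was at 0.441, 0.322, 0.371 and 0.541 in runs 1 to 4, Adipoq at 0.586, 0.127 and 0.339 and Msln at 0.51, 0.236 and 0.286 in runs 1 to 3, and Sftpc at -0.156 without the 16 arrays and -0.434, -0.34, -0.267 and -0.265 in runs 1 to 4. Around group means Acta1 (0.283), Acta2 (0.264) and Ptcra (-0.232) passed, as did Acta2 without the 2 farthest mice (0.291). Signs turned for Acta1 in run 2 (-0.245), Acta2 and Ptcra in run 4 (-0.0058 and 0.0865) and Alb (-0.0331 without the 2 farthest mice, -0.0536 around group means, -0.527 in run 1 and -0.0187 in run 3). The other 315 values kept their direction and side of the threshold.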
